A study of Arabidopsis thaliana with 6 samples.

Results

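The ethylene-jasmonate defensin branch of Arabidopsis was examined in mutants of a histone deacetylase complex. It comprises 7 genes, given by name, of the 32548 genes measured: the transcription factor genes ERF1 (AT3G23240) and ORA59 (AT1G06160), and the PDF1 defensin genes PDF1.2a (AT5G44420), PDF1.2b (AT2G26020), PDF1.2c (AT5G44430), PDF1.3 (AT2G26010) and PDF1.1 (AT1G75830). RNA-seq was carried out on 20-day-old seedlings of the hda19 mutant (hda19-/-), the hdip1/2/3 triple mutant (hdip1-/-, hdip2-/-, hdip3-/-) and the wild type Col-0, with 2 libraries per genotype. HDA19 is a histone deacetylase, and HDIP1, HDIP2 and HDIP3 are subunits of its complexes. The hda19 plants are 1 T-DNA insertion line, and hdip1/2/3 was made by CRISPR-Cas9. The methods do not say how many hdip1/2/3 lines went into the libraries. The labels name growth on medium plates and soil and no hormone treatment or pathogen, so the values are levels in seedlings for which no induction is stated. The methods speak of independent biological replicates, but do not say how many plants each library holds.

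In the ethylene-jasmonate branch, ethylene stabilises the transcription factor EIN3 and its relative EIL1, whereas jasmonate is perceived by COI1 and releases factors held by JAZ repressors. Both signals meet at ERF1 and ORA59, which are AP2/ERF proteins that bind the GCC box, a short GC-rich element, in the promoters of defence genes. PDF1.2a is the usual marker of the branch and encodes a small, cysteine-rich, secreted peptide with antifungal activity. The branch is best known for resistance to necrotrophic fungi, and is held back by the MYC2 branch of jasmonate signalling and by salicylic acid.

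The 5 PDF1 genes are similar in sequence, so their coding sequences are shown first. Each has a coding sequence of 243 nt in 2 exons, with 64 nt in the first and 179 nt in the second. Identity between pairs of coding sequences ranged from 87.2% for PDF1.2b and PDF1.1 to 94.7% for PDF1.2c and PDF1.3. The PDF1.2 and PDF1.3 genes lie in tandem pairs. PDF1.2a and PDF1.2c are 1211 nt apart on the minus strand of chromosome 5, and PDF1.3 and PDF1.2b are 1121 nt apart on the plus strand of chromosome 2. The second coding exons, which hold most of the coding sequence, are printed 5′ to 3′ from the RefSeq annotation of TAIR10.1. Capitals mark the bases that differ from PDF1.2a.
PDF1.2a (chr5:17907216-17907394, minus strand): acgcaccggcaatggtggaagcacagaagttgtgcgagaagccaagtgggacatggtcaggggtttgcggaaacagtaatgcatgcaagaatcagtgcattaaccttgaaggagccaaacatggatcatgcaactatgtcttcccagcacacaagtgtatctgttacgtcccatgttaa
PDF1.2b (chr2:11089419-11089597, plus strand): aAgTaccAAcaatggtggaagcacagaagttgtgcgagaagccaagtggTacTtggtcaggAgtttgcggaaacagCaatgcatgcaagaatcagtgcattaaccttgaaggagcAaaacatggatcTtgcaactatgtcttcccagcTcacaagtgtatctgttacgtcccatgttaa
PDF1.2c (chr5:17909092-17909270, minus strand): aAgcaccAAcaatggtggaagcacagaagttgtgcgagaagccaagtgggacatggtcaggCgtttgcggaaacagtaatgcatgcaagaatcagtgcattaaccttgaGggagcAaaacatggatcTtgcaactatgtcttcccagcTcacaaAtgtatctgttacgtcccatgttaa
PDF1.3 (chr2:11087577-11087755, plus strand): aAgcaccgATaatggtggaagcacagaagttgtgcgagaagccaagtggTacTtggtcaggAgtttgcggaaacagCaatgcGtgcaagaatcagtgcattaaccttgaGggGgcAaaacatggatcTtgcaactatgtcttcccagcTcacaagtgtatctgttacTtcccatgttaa
PDF1.1 (chr1:28472576-28472754, plus strand): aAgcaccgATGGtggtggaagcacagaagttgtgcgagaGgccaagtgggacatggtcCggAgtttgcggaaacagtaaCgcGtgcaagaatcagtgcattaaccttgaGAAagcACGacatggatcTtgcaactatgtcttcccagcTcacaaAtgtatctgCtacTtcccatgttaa
Over the whole coding sequence, PDF1.2b differed from PDF1.2a at 15 bases, PDF1.2c at 16, PDF1.3 at 21 and PDF1.1 at 30. The differences are spread over the exon, which bears on how well reads can be told apart. Of all stretches of 50 nt along each transcript, 5.0% in PDF1.2b and 4.90% in PDF1.3 occurred elsewhere in the genome, against 0.566% in PDF1.2a, 0.601% in PDF1.2c and 0% in PDF1.1, ERF1 and ORA59. No stretch of 150 nt in any of the 7 transcripts occurred elsewhere. Only uniquely mapped reads were counted, so a small part of the reads of the tandem pairs could have been lost or assigned to the wrong copy, and the single PDF1 values are uncertain to that extent. No other annotated gene overlaps any of the 7.

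The promoters were read because ERF1 and ORA59 act on the GCC box. The core GCCGCC, which reads GGCGGC on the other strand, was searched on both strands of the 250 bases before each annotated transcript start. It was found before ORA59, PDF1.2a and PDF1.2b, and it was present in 513 of 27443 promoters of the same length (1.87%). The windows of these 3 genes and, for contrast, that of PDF1.3 are printed 5′ to 3′ on the strand of the gene, from RefSeq TAIR10.1. Capitals mark GCCGCC, and the PDF1.3 window has none.
ORA59 (chr1:1882657-1882906, plus strand): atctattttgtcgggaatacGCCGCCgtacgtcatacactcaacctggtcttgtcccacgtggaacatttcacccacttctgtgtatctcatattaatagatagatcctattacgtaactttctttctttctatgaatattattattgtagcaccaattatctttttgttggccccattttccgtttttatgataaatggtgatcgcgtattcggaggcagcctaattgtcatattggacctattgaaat
PDF1.2a (chr5:17907639-17907888, minus strand): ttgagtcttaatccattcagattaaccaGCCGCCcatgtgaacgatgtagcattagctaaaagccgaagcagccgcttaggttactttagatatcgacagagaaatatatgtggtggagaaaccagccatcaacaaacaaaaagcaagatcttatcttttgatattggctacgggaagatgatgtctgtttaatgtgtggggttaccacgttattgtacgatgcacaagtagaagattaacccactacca
PDF1.2b (chr2:11088873-11089122, plus strand): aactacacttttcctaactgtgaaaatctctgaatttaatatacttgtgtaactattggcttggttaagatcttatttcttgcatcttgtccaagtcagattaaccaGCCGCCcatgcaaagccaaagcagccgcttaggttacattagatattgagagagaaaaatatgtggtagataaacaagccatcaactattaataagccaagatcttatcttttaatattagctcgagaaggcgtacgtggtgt
PDF1.3 (chr2:11087030-11087279, plus strand): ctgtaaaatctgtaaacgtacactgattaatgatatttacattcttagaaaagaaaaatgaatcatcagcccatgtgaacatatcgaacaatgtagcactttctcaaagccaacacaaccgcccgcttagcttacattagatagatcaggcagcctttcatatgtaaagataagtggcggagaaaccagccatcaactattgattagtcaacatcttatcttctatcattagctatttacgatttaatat
The match began 230 bases before the start in ORA59, 222 in PDF1.2a and 143 in PDF1.2b. In PDF1.2a and PDF1.2b the core lies in a shared stretch of letters, although the windows place it at different distances from the start. The G-box CACGTG, the core of sites for MYC and other bHLH or bZIP factors, was found in ORA59 alone of the 7 genes, 194 bases before the start (6.49% of all promoters have it). The core TGACG of TGA factor sites, which reads CGTCA on the other strand, was likewise found in ORA59 alone (18.6% of promoters). The W-box core TTGAC, a site for WRKY factors that reads GTCAA on the other strand, occurred in PDF1.2c, PDF1.3 and PDF1.1 (44.9% of promoters), and no motif overlapped another. The ERF1 window held none of the 4 motifs. A match is a description of the sequence, and no binding was measured.

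**Figure D1:**
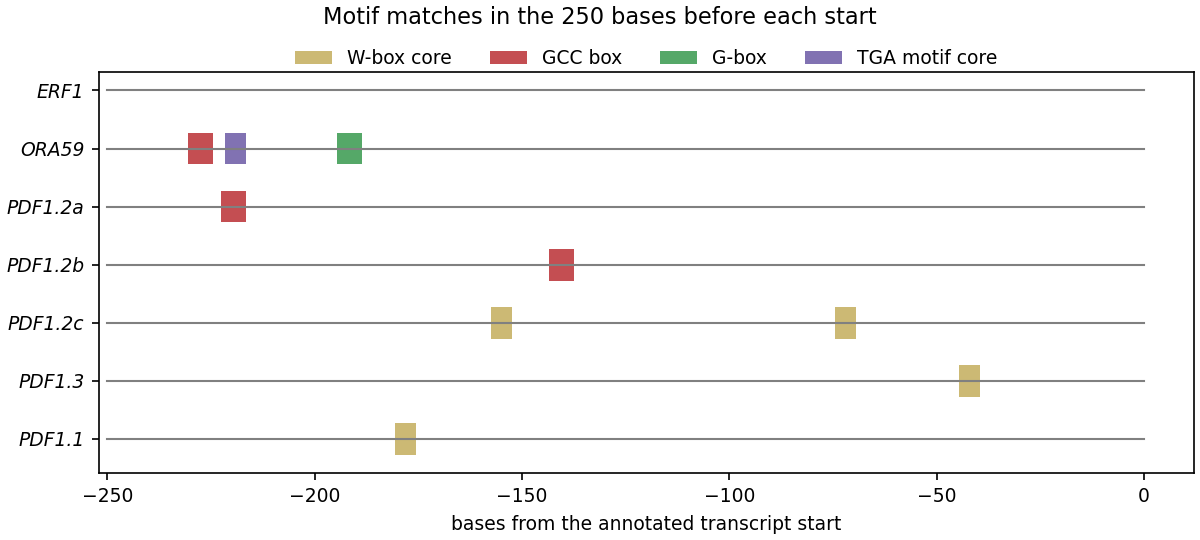
Matches to 4 motifs in the 250 bases before the annotated transcript start of the 7 branch genes; the x axis is the distance from the start in bases, each line is a promoter and each coloured box a match on either strand. The GCC box core lies 230, 222 and 143 bases before the starts of ORA59, PDF1.2a and PDF1.2b.

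The libraries held 43906641 to 48407739 recovered reads on genes, and the 10 genes with the most reads took 7.05% to 9.80% of each. Values are adjusted read counts, that is, reads per gene brought to a common library size. Leaf markers were abundant in all libraries, with summed values of 1089000 to 2014000. Seed markers summed to at most 6.15. The flower markers AP3 and PI summed to 76.9 and 28.6 in hda19, 55.9 and 16.5 in hdip1/2/3, and 26.2 and 39.4 in the wild type. AP3 was called lower in hdip1/2/3 (-2.53, limma adjusted P = 0.130), whereas PI was 0.94 there and not called. In hda19, AP3 was -0.54 and PI 1.25 on the log2 scale, neither called. Of the 4 root markers, RHD6 had no read, SHV2 and TIP2;3 had 8 and 6 reads over all libraries, and the sum came from PYK10. HDA19 itself read 2832 and 4561 in hda19, 4893 and 5206 in hdip1/2/3, and 4298 and 4416 in the wild type, so its transcript level does not check the genotype labels. In hdip1/2/3, the log2 fold changes of HDIP1, HDIP2 and HDIP3 were 0.25, 0.37 and 0.08, which give no check of that label either. A gene was called when its log2 fold change exceeded 1 in either direction and its unadjusted P value was under 0.05, the limits of the study, in limma-trend on log2(value + 1). Fold changes on that scale understate the change of genes with few reads. Of the 7 genes, 6 reached the minimum mean of 1 in some genotype and entered the test. An exact permutation test of 2 libraries against 2 cannot give a two-sided p below 0.333, so each P value below depends on the spread shared among genes in the limma fit.

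In the mutants, the regulators and the defensins did not move as one. ERF1 was higher in both mutants than in the wild type, ORA59 was higher in hdip1/2/3, PDF1.3 was 6.11-fold lower in hda19 and 9.36-fold lower in hdip1/2/3 by the ratio of means, and the 3 PDF1.2 transcripts were higher in hda19 than in hdip1/2/3. In hda19 against the wild type, 1 of the 6 genes tested was called higher and 1 lower, where 4.65% of the 23685 genes tested were called higher and 2.09% lower. In hdip1/2/3 against the wild type, 2 were called higher and 2 lower, against 4.92% and 4.07% of all genes. Both comparisons use the same wild-type libraries, so they are not independent of each other. In hda19 against hdip1/2/3, 3 were called higher and 0 lower, against 2.49% and 1.14% of all genes. After Benjamini-Hochberg adjustment in limma, 0 of the 6 passed in hda19, 1 in hdip1/2/3 and 0 in the direct comparison, although 2, 4 and 3 had an unadjusted P under 0.05. The shares of all genes with an adjusted P under 0.05 were 2.84%, 7.17% and 0% in the same order. limma-voom on the recovered reads also gave 0 such genes in the direct comparison. The median log2 fold change of the 6 genes was 0.95 in hda19 and -1.26 in hdip1/2/3 relative to the wild type, and 1.13 in hda19 relative to hdip1/2/3, with medians over all genes of 0.00 in each.

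**Figure D2:**
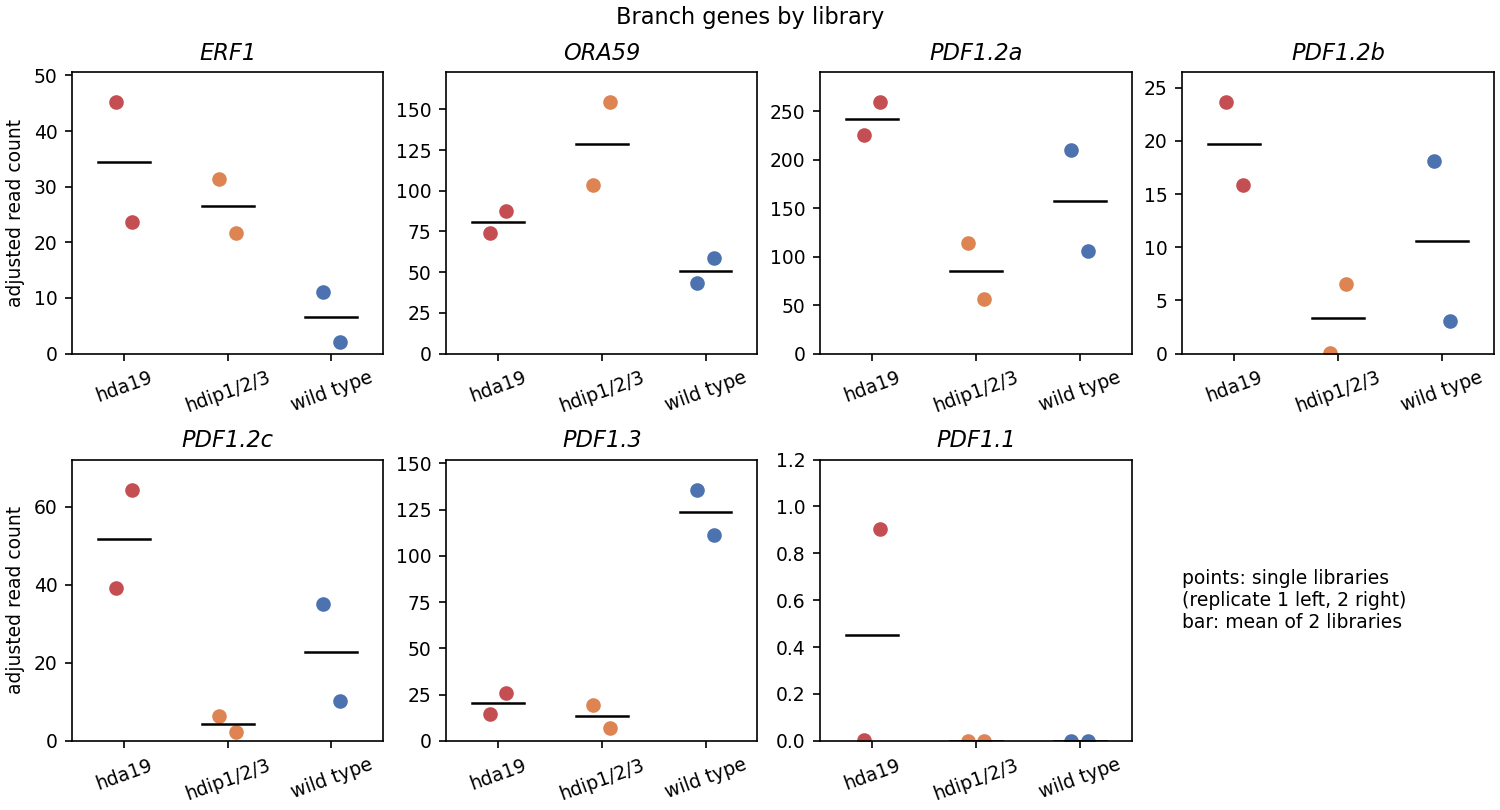
Adjusted read counts (y axis, linear, a separate scale per gene) of the 7 branch genes in hda19, hdip1/2/3 and the wild type; points are single libraries and bars the mean of 2 libraries. Both mutants lie below both wild-type libraries for PDF1.3 and above them for ERF1 and ORA59.

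ERF1, which links EIN3 to defence genes, had the fewest reads of the regulators. Its adjusted read counts were 45.2 and 23.7 in hda19, 31.4 and 21.7 in hdip1/2/3, and 11.1 and 2.04 in the wild type. Both wild-type libraries were lower than any of the 4 mutant libraries, and the mutants overlapped each other. The wild-type values rest on 11 and 2 reads. The log2 fold change was 2.48 in hda19 (SE 0.71, limma unadjusted P = 0.00868, adjusted P = 0.118) and 2.16 in hdip1/2/3 (SE 0.71, limma unadjusted P = 0.0167, adjusted P = 0.0927). The mutants differed by 0.32 with a 95% interval of -1.33 to 1.96, which leaves a difference in either direction possible. The call in hda19 was lost without hda19 replicate 1 (log2 fold change 2.03), hda19 replicate 2 (2.93), hdip1/2/3 replicate 2 (2.48) or wild-type replicate 2 (1.49). That in hdip1/2/3 was lost without either hda19 library (2.16), hdip1/2/3 replicate 1 (1.90), hdip1/2/3 replicate 2 (2.42) or wild-type replicate 2 (1.17). The direction remained in each case.

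ORA59, the AP2/ERF factor at which the ethylene and jasmonate signals are integrated, had more adjusted reads per kb of transcript than ERF1 in every library. It had 74.1 and 87.3 adjusted reads in hda19, 103.5 and 154.3 in hdip1/2/3, and 43.3 and 58.6 in the wild type. The 3 genotypes did not overlap, with hdip1/2/3 highest and the wild type lowest. The rise in hdip1/2/3 was called, with a log2 fold change of 1.31 (SE 0.33, limma unadjusted P = 0.00468, adjusted P = 0.0552), and the call held without any 1 library (1.02 to 1.60). In hda19 the log2 fold change was 0.66 (95% interval -0.11 to 1.44, limma unadjusted P = 0.0824), which did not pass. The direct difference, hda19 minus hdip1/2/3, was -0.65 (95% interval -1.42 to 0.13, limma unadjusted P = 0.0896) and did not pass either. The order of the mutants for ORA59 is thus not established beyond the spread.

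PDF1.3, the defensin gene next to PDF1.2b, had the largest fold change of the 6 genes against the wild type in hdip1/2/3. In hda19, whether PDF1.3 or ERF1 had the larger change depended on the pseudocount. With 1 they were at -2.60 and 2.48, and with 0.1 at -2.66 and 2.75. PDF1.3 had 14.5 and 26.0 adjusted reads in hda19, 19.3 and 7.06 in hdip1/2/3, and 135.8 and 111.3 in the wild type. All mutant libraries lay far below both wild-type libraries, and the 2 mutants overlapped. The log2 fold change was -2.60 in hda19 (SE 0.54, limma unadjusted P = 0.00151, adjusted P = 0.0520) and -3.27 in hdip1/2/3 (SE 0.54, limma unadjusted P = 3.6e-04, adjusted P = 0.0212). The call held without any 1 library in both mutants, at -3.0 to -2.2 in hda19 and -3.94 to -2.61 in hdip1/2/3. Over all alternatives the limma adjusted P in hdip1/2/3 ranged from 0.00967 to 0.242, and it was 0.120 to 0.242 when 1 library was left out. The mutants differed from each other by 0.67 (95% interval -0.58 to 1.93), within the spread. In bulk seedlings, fewer cells that express a gene and less RNA per cell cannot be told apart. The root marker PYK10 differed between the same genotypes, at 6828 and 8835 in hda19, 6636 and 5813 in hdip1/2/3, and 3494 and 3539 in the wild type, while the other 3 root markers were at or near 0. PYK10 overlaps AT3G09250 in the annotation, and its part in these results was not tested.

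PDF1.2a, the marker defensin, had the highest mean per kb of the 7 genes in each genotype. Its adjusted read counts were 225.3 and 258.9 in hda19, 113.6 and 56.0 in hdip1/2/3, and 210.2 and 105.3 in the wild type. The hda19 libraries were above both other genotypes, whereas hdip1/2/3 and the wild type overlapped. Relative to the wild type the log2 fold change was 0.70 in hda19 (95% interval -0.30 to 1.69) and -0.89 in hdip1/2/3 (95% interval -1.88 to 0.10), neither called. The direct difference, hda19 minus hdip1/2/3, was 1.59 (SE 0.43, limma unadjusted P = 0.00647, adjusted P = 0.188). That call was lost without hda19 replicate 1 (1.69), hda19 replicate 2 (1.49) or hdip1/2/3 replicate 2 (1.08).

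PDF1.2c, the tandem partner of PDF1.2a, followed the same order with wider gaps. It had 39.2 and 64.4 adjusted reads in hda19, 6.44 and 2.37 in hdip1/2/3, and 35.2 and 10.2 in the wild type. No genotype overlapped another, although wild-type replicate 1 was close to the lower hda19 library. The fall in hdip1/2/3 was called, at -2.0 (SE 0.69, limma unadjusted P = 0.0212, adjusted P = 0.104). It was lost without wild-type replicate 1 (-1.16), hdip1/2/3 replicate 1 (-2.58), hdip1/2/3 replicate 2 (-1.43) or either hda19 library (-2.0), and held without wild-type replicate 2 (-2.85). In hda19 the log2 fold change was 1.35 (SE 0.69, limma unadjusted P = 0.0890), not called, but it passed without wild-type replicate 1 (2.2). The direct difference was 3.35 (SE 0.69, limma unadjusted P = 0.00147, adjusted P = 0.188), and this call held without any 1 library (2.78 to 3.93).

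PDF1.2b had few reads. Its adjusted read counts were 23.6 and 15.9 in hda19, 0.063 and 6.58 in hdip1/2/3, and 18.1 and 3.06 in the wild type, and hdip1/2/3 replicate 1 held 0 reads. Only the mutants were separate from each other. The log2 fold changes of 1.21 in hda19 and -1.63 in hdip1/2/3 had a standard error of 1.06 and were not called. Leaving out 1 library moved them to between 0.09 and 2.33 in hda19 and between -3.05 and -0.22 in hdip1/2/3. The direct difference of 2.84 was called (limma unadjusted P = 0.0289, adjusted P = 0.197), but without hdip1/2/3 replicate 1 it was 1.43 and not called. It was also lost without hda19 replicate 1 (2.57), hda19 replicate 2 (3.12) or either wild-type library (2.84).

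PDF1.1, known mainly from seeds, had 1 read in hda19 replicate 2 and 0 in the other 5 libraries. A count of 0 allows up to 3 reads per library by counting error alone, and more if both mates of a read pair were counted. No difference was therefore detectable at this depth. It was not tested.

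**Figure D3:**
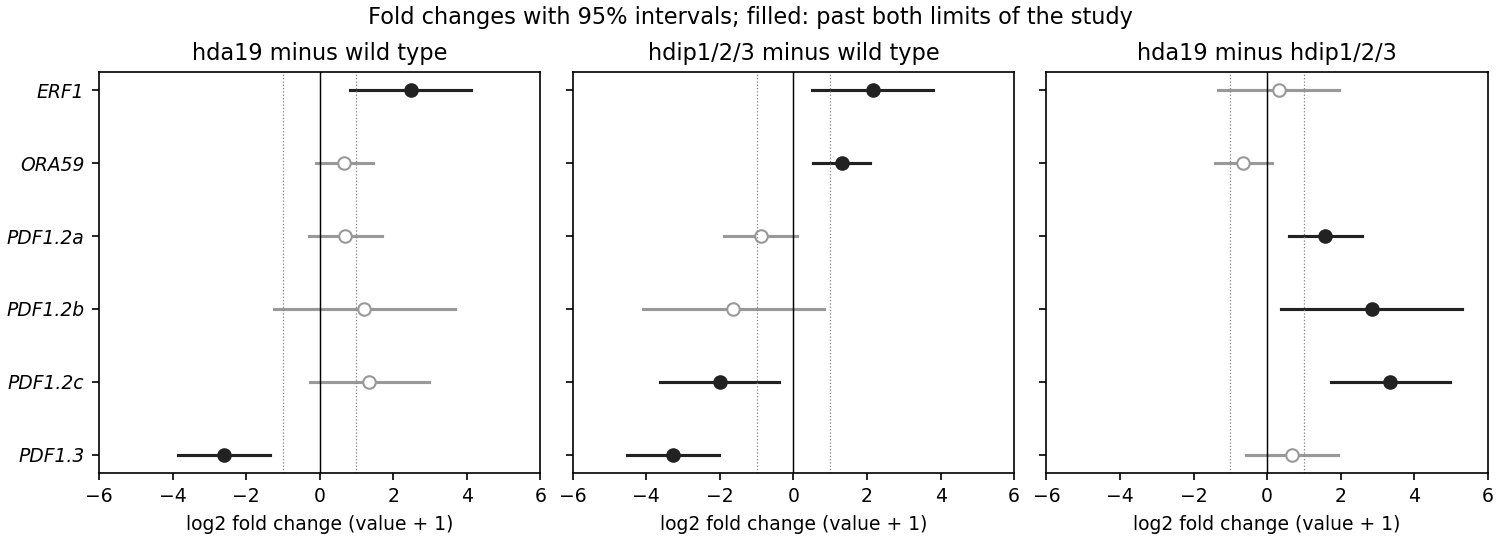
Log2 fold changes of the 6 branch genes tested (x axis, on the log2(value + 1) scale) for hda19 minus wild type, hdip1/2/3 minus wild type and hda19 minus hdip1/2/3; lines are 95% limma intervals, filled points passed both limits of the study and dotted lines mark a log2 fold change of 1 in either direction. PDF1.3 was at -2.60 and -3.27 in the mutants, and PDF1.2c at 3.35 in the direct comparison.

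The PDF1.2 copies were also summed, since reads could have been split among them. The sum of PDF1.2a, PDF1.2b and PDF1.2c was 288.0 and 339.2 in hda19, 120.1 and 64.9 in hdip1/2/3, and 263.5 and 118.5 in the wild type. The hda19 libraries were above all others, and hdip1/2/3 replicate 1 was just above wild-type replicate 2. Fitted as 1 gene, the sum differed by 0.82 on the log2 scale in hda19 (limma unadjusted P = 0.0941) and -0.99 in hdip1/2/3 (limma unadjusted P = 0.0506) relative to the wild type, neither called. The direct difference was 1.81 (SE 0.43, limma unadjusted P = 0.00319, adjusted P = 0.188) and was called.

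The make-up of the defensin transcripts was also described, without a test. PDF1.3 made up 4.78% and 7.11% of the summed PDF1 values in hda19, 13.9% and 9.81% in hdip1/2/3, and 34.0% and 48.4% in the wild type. PDF1.2a made up 74.5% and 70.7% in hda19, 81.5% and 77.8% in hdip1/2/3, and 52.7% and 45.8% in the wild type. In the wild type, PDF1.2a and PDF1.3 were thus the main pair, and in both mutants PDF1.2a predominated. The PDF1 total was 302.5 and 366.1 in hda19, 139.4 and 71.98 in hdip1/2/3, and 399.3 and 229.7 in the wild type. The hda19 totals lay between the wild-type libraries, and both hdip1/2/3 totals lay below them. The wild-type libraries differed from each other in PDF1.2a, PDF1.2b, PDF1.2c and ERF1, with replicate 1 higher in all 4, and were closer in PDF1.3 and ORA59.

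**Figure D4:**
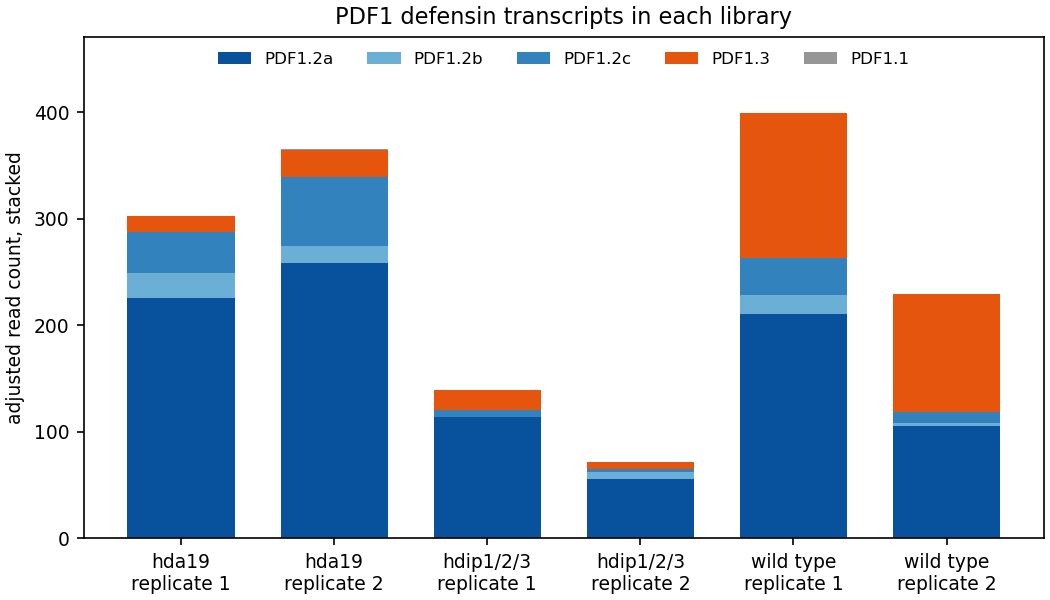
Adjusted read counts of the 5 PDF1 genes stacked per library (y axis, linear from 0) in hda19, hdip1/2/3 and the wild type. PDF1.3 makes up 34.0% and 48.4% of the stack in the wild type and at most 13.9% in the mutants.

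Levels of different genes were compared per kilobase of transcript, as means of 2 libraries of adjusted reads per kb. In hda19 the order was PDF1.2a (418), PDF1.2c (94.5), ORA59 (74.3), ERF1 (34.8), PDF1.3 (32.6) and PDF1.2b (32.4). In hdip1/2/3 it was PDF1.2a (146), ORA59 (119), ERF1 (26.8), PDF1.3 (21.3), PDF1.2c (8.04) and PDF1.2b (5.45). In the wild type it was PDF1.2a (272), PDF1.3 (199), ORA59 (46.9), PDF1.2c (41.4), PDF1.2b (17.4) and ERF1 (6.63). Of neighbours in the order, PDF1.2a was separate from PDF1.2c in hda19, where both its libraries (389 and 447) exceeded those of PDF1.2c (71.5 and 118). In hdip1/2/3, PDF1.2a (196 and 96.7) and ORA59 (95.3 and 142) overlapped, and in the wild type so did PDF1.2a (363 and 182) and PDF1.3 (219 and 180). ERF1, PDF1.3 and PDF1.2b were not separable in hda19.

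Across the 6 libraries, the lowest correlation between any of the 6 genes was that of ORA59 and PDF1.3 (Pearson r = -0.91 on log2 values), and the highest was that of PDF1.2a and PDF1.2c (r = 0.98). These are descriptions over 6 libraries of 3 genotypes, and the shared genotypes are in every value. The genes most like ORA59 were AT4G37810, AT1G79720 and AT1G52190, each with r of 0.998 to 0.999, and 401 genes had r of at least 0.95. Those most like PDF1.2a were AT1G55200, ARF1 and AT5G46840, each with r of 0.997 to 0.998, among 522 such genes.

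ERF1 and ORA59 belong to group IX of the ERF family, and the other members of that group were examined. Of 15 listed, 11 were tested, with 4 called higher and 0 lower in hda19, and 7 higher and 0 lower in hdip1/2/3. Of all genes tested, 4.65% were called higher in hda19 and 4.92% in hdip1/2/3. The median log2 fold change was 0.54 in hda19 and 1.24 in hdip1/2/3. ERF-1 (AT4G17500), a GCC-box activator distinct from ERF1, had 351.7 and 288.8 in hda19, 356.4 and 434.6 in hdip1/2/3, and 129.8 and 130.5 in the wild type. It rose by 1.29 in hda19 and 1.59 in hdip1/2/3 on the log2 scale (limma adjusted P = 0.0245 and 0.0104). ERF2, which activates PDF1.2, rose by 1.27 in hda19 and 1.42 in hdip1/2/3, TDR1 by 1.38 and 1.90, and AT5G61590 by 1.15 and 1.58. The limma adjusted P was 0.0310 and 0.0183 for ERF2, 0.0771 and 0.0231 for TDR1, and 0.0103 and 0.00453 for AT5G61590. ERF6, a regulator of defence and stress genes, was called in hdip1/2/3 only (2.09, against 0.83 in hda19), as were ERF5 and ERF104 (limma adjusted P = 0.0231, 0.0569 and 0.0569 for the 3 genes). The direct difference, hda19 minus hdip1/2/3, was called for ERF6 (-1.27) and ERF5 (-1.25), both lower in hda19, and not for ERF104 (-0.66). The limma adjusted P was 0.188 for both ERF6 and ERF5. In that comparison 2 of the 11 were called lower and 0 higher, against 1.14% and 2.49% of all genes.

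Genes that carry the signals to ERF1 and ORA59 showed no call. EIN2, EIN3, EIL1, the EIN3-degrading F-box genes EBF1 and EBF2, the jasmonate receptor gene COI1 and the Mediator subunit gene PFT1 were all tested. In each of the 3 comparisons, 0 of 7 passed the limits. Over all genes, 4.65% were called higher and 2.09% lower in hda19, and 4.92% and 4.07% in hdip1/2/3. In the direct comparison the shares were 2.49% and 1.14%. At such shares, 0 of 7 does not set these genes apart from the rest. At an unadjusted P under 0.05 without the fold limit, EIN3 was 0.42, EIL1 0.35 and EBF2 0.38 higher in hda19 on the log2 scale (limma adjusted P = 0.144, 0.138 and 0.128). In hdip1/2/3, EIL1 was 0.26, EBF2 0.43 and EIN2 -0.49 relative to the wild type (limma adjusted P = 0.147, 0.0575 and 0.0714). In hda19 minus hdip1/2/3, EIN2 was 0.64, PFT1 0.55 and EIN3 0.36 (limma adjusted P = 0.188, 0.188 and 0.194). EBF2 and COI1 overlap other annotated genes, so their counts are uncertain to that extent. These transcript levels say nothing of the stability of the EIN3 protein, at which ethylene acts.

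Among factors known to hold the branch back, 11 of 12 were tested, with 2 higher in hda19, 3 higher in hdip1/2/3 and 0 lower in either, where 4.65% and 4.92% of all genes were called higher and 2.09% and 4.07% lower. GRX480, a glutaredoxin that acts with TGA factors against ORA59, had 91.5 and 65.5 in hda19, 111.7 and 83.9 in hdip1/2/3, and 27.2 and 26.3 in the wild type. On the log2 scale it rose by 1.5 in hda19 and 1.82 in hdip1/2/3 (limma adjusted P = 0.0649 and 0.0284). WRKY51, a repressor of jasmonate responses, rose by 1.71 and 2.12 (limma adjusted P = 0.0280 and 0.0117). ERF4, a repressor of PDF1.2, was called in hdip1/2/3 (1.3, limma adjusted P = 0.0116), with 0.68 in hda19, and the direct difference of -0.63 was not called. WRKY70, MYC3, MYC4, WRKY50, ERF9 and the 3 TGA genes AHBP-1B, OBF5 and TGA6 were not called. At an unadjusted P under 0.05 without the fold limit, MYC4 was -0.43 in hda19 (limma adjusted P = 0.122). WRKY50 was 0.77 in hda19 and 0.92 in hdip1/2/3 (limma adjusted P = 0.265 and 0.106). ERF9 was 0.90 in hdip1/2/3, and OBF5 0.44 in hda19 minus hdip1/2/3 (limma adjusted P = 0.136 and 0.223). MYC2 was listed at 0 in all 6 libraries, and its annotated span overlaps that of AT1G32630 on the opposite strand, so nothing can be said of its level.

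Other genes of the ethylene-jasmonate response and the family were compared with the PDF1 members. PR4, which encodes a chitin-binding protein, had 4526 and 4428 in hda19, 3971 and 4570 in hdip1/2/3, and 1528 and 1961 in the wild type. It rose by 1.37 in hda19 and 1.3 in hdip1/2/3 (limma adjusted P = 0.00765 and 0.00702). This marker of the branch was thus higher in both mutants, whereas PDF1.2a was called in neither against the wild type. In hda19, the 95% interval of PDF1.2a (-0.30 to 1.69) includes the PR4 value of 1.37, so no difference between these genes is shown there. In hdip1/2/3, PDF1.2a was at -0.89, opposite in direction to PR4 but not called. The difference between PR4 and PDF1.2a was not tested. HCHIB, a basic chitinase gene, rose by 1.42 in hda19 (limma adjusted P = 0.0317), with 0.74 in hdip1/2/3, not called, and a direct difference of 0.68, not called. THI2.1, a thionin gene induced by jasmonate, had 50.2 and 6.52 in hda19, 0.0219 and 2.2 in hdip1/2/3, and 6.05 and 24.2 in the wild type, and was called lower in hdip1/2/3 (-2.88, limma adjusted P = 0.120), with a direct difference of 3.44 that was also called (limma adjusted P = 0.188). Its hda19 libraries differ widely from each other. HCHIB and THI2.1 each overlap another annotated gene, so their counts are uncertain to that extent.

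Of 10 other defensin genes, 7 were tested, with 1 higher and 1 lower in hda19, and 2 higher and 1 lower in hdip1/2/3. The shares of all genes called higher and lower were 4.65% and 2.09% in hda19, and 4.92% and 4.07% in hdip1/2/3. In hda19 minus hdip1/2/3 they were 2.49% and 1.14%. PDF1.4, of the same subfamily as the PDF1 members above, had 174.9 and 207.4 in hda19, 178.1 and 174.0 in hdip1/2/3, and 22.1 and 34.4 in the wild type. It rose by 2.74 in hda19 and 2.63 in hdip1/2/3 (limma adjusted P = 0.00847 and 0.00725), opposite to PDF1.3. PDF2.5 was called lower in both mutants, where it had no reads, on 8.04 and 2.04 adjusted reads in the wild type (limma adjusted P = 0.171 in hda19 and 0.0966 in hdip1/2/3). PDF2.1, with 73 reads over all libraries, was called higher in hdip1/2/3 (1.46, limma adjusted P = 0.113), and lower in hda19 than in hdip1/2/3 (-1.94). Of 3 markers of the MYC branch, VSP1, a vegetative storage protein gene, was called lower in hdip1/2/3 (-2.53, limma adjusted P = 0.0478), and VSP2 was not called in either mutant. LOX2, a lipoxygenase gene of jasmonate synthesis, was -0.80 in hdip1/2/3, under the fold limit but with a limma adjusted P of 0.0217, and -0.31 in hda19 (limma adjusted P = 0.286). In hda19 minus hdip1/2/3, VSP1 (2.30) and VSP2 (1.14) were called (limma adjusted P = 0.188 for each), as were the 3 PDF1.2 genes. The hda19 libraries of VSP1 differ widely from each other, at 661.9 and 159.7.

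**Figure D5:**
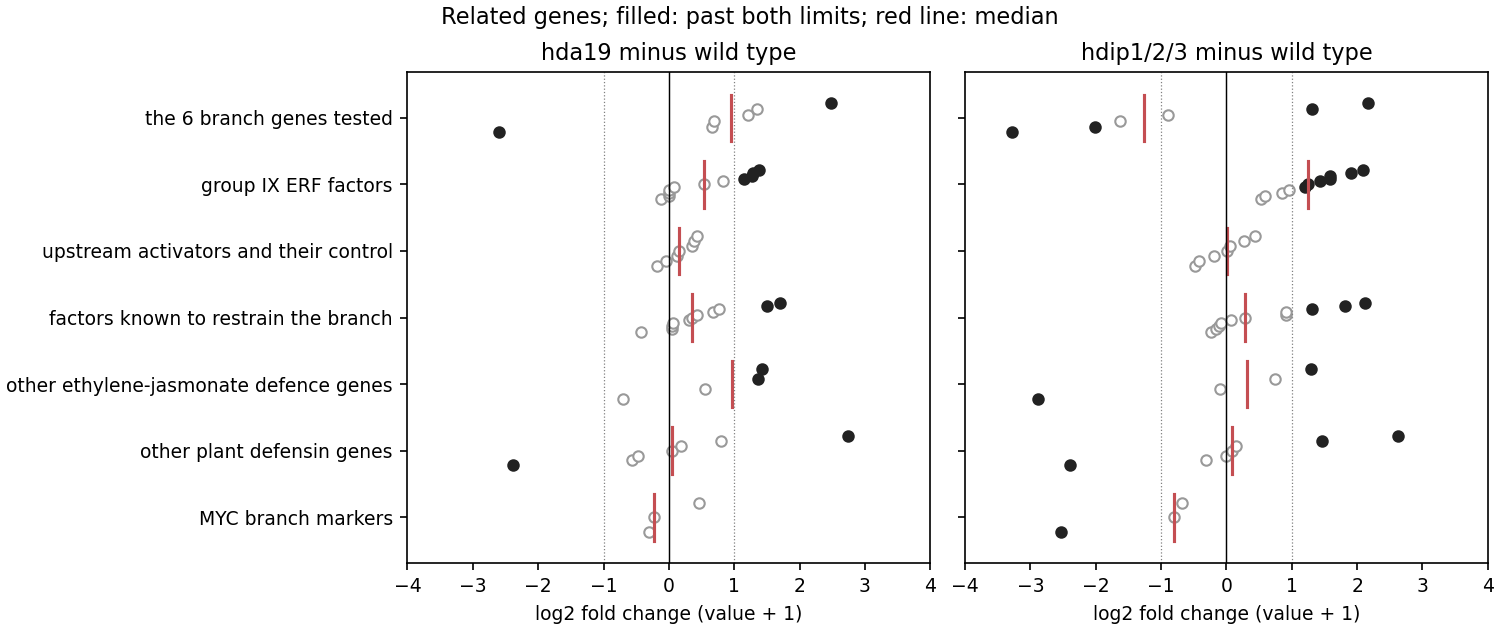
Log2 fold changes (x axis, on the log2(value + 1) scale) of the 6 branch genes tested and 6 lists of related genes in hda19 and hdip1/2/3, each minus the wild type; points are genes, filled where both limits of the study were passed, and red lines are list medians. Group IX ERF factors have a median of 0.54 in hda19 and 1.24 in hdip1/2/3, and no upstream gene was called.

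The chromosomal neighbours of the 7 genes were also read. Of the 3 nearest protein-coding genes on each side, 30 in all, 27 were tested. In hda19, 3 were called higher and 0 lower, and in hdip1/2/3 the same 3 were higher and 1 was lower, where 4.65% and 4.92% of all genes were called higher and 2.09% and 4.07% lower. TDR1 (1.38 in hda19 and 1.90 in hdip1/2/3) and MYB15 (1.32 and 1.88) lie on either side of ERF1, so ERF1 and its nearest tested neighbours on both sides were higher in both mutants. CML43, 7486 nt from the PDF1.2a and PDF1.2c pair, rose by 1.52 and 1.68. The limma adjusted P in hda19 and hdip1/2/3 was 0.0771 and 0.0231 for TDR1, 0.151 and 0.0425 for MYB15, and 0.0892 and 0.0449 for CML43. Near PDF1.3 and PDF1.2b, the gene called lower in hdip1/2/3 was AT2G25980, which had 8 reads over all libraries (limma adjusted P = 0.146). The 6 neighbours of ORA59 showed no call.

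Promoters with GCCGCC were compared with the others over all genes. Of 427 tested genes with it, 6.32% were called higher in hda19 and 5.39% in hdip1/2/3, against 4.62% and 4.80% of the 21908 without it. Called lower were 1.17% in hda19 and 3.75% in hdip1/2/3 of those with it, against 2.12% and 4.22% of those without it. Within the branch, the genes with the core were ORA59, PDF1.2a and PDF1.2b. Of these, only ORA59 was called against the wild type, in hdip1/2/3. Of the genes without the core in the window, ERF1 rose and PDF1.3 fell in both mutants, and PDF1.2c fell in hdip1/2/3.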

How the data were processed

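Total RNA of 20-day-old seedlings was sequenced in 6 libraries. The methods name paired Illumina NovaSeq reads, whereas the labels name single-end DNBSEQ reads. The deposited signal values are reads per gene, which the authors brought to 1 common library size after mapping to TAIR10 with HISAT2 and counting of unique reads with featureCounts. For the differential expression, the authors name cuffdiff and edgeR. The authors' adjustment has the form of edgeR's quantile adjustment, inferred from the values. Undoing it gave 195288 of 195288 values within 0.01 of a whole read. Between 58.2% and 60.3% of counts of 1 to 20 were even, so mates may have been counted singly. Depth was 43906641 to 48407739 reads. Both the number of libraries and, for genes with few reads, counting error limit the precision.

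The 23685 genes whose mean reached 1 in some genotype entered 1 limma-trend fit (limma 3.58.1, R 4.3.3) of log2(value + 1) with genotype as the only term and Benjamini-Hochberg adjustment. Calls needed an unadjusted P under 0.05 and a log2 fold change above 1 or below -1. limma-voom on the recovered reads called 1109 genes higher and 522 lower in hda19, and 1124 and 924 in hdip1/2/3. The fit and the recovery were tested on simulated data. The alternatives were 2 scalings, a pseudocount of 0.1, other filters, a replicate block, fits of 2 genotypes alone, limma-voom, an adjusted threshold, summed PDF1.2 copies and the omission of each library; limma-voom on reads divided by 2 was added after seeing the data. Sequences, positions and names came from RefSeq TAIR10.1, which matched all 32548 identifiers. Gene models were used for names and for motif and copy searches in Python 3.11.15. The members and lists were chosen with earlier results of these data known. Named genes were the 7 members, list genes and neighbours called against the wild type (at most 6 per list), and the 3 genes most like ORA59 and PDF1.2a; the other genes were named after their values were seen. Allele sequences were not used here.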

Additional observations from a re-analysis of the deposited data

Results flagged for a closer look

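For 3 genes, the effects of the 2 mutants differed by the direct test, hda19 minus hdip1/2/3: PDF1.2a (log2 fold change 1.59), PDF1.2b (2.84) and PDF1.2c (3.35), each higher in hda19. The unadjusted P values of limma passed 0.05, but the adjusted ones were 0.188, 0.197 and 0.188. Groups of 2 libraries were not searched for outlying libraries.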

How the results depend on the processing

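Over 297 alternative values of the log2 fold changes of the 6 genes, 259 kept their direction and their side of the limits, 34 lost the call, 3 gained it and 1 changed direction, which was ERF1 in hda19 minus hdip1/2/3 without hda19 replicate 1 (-0.13, with 0.77 at the other end over single omissions). With no filter on low values, 1 gene was called in hda19 and 2 in hdip1/2/3, in place of 2 and 4; ERF1 lost its call in both mutants, PDF1.2c in hdip1/2/3 and PDF1.2b in the direct comparison, where 2 of 3 stayed called. With a limma adjusted P under 0.05 as the only limit, 0 genes were called in hda19, 1 in hdip1/2/3 and 0 in the direct comparison. Leaving out 1 library gave 1 to 3 calls in hda19, 2 to 3 in hdip1/2/3 and 1 to 2 in the direct comparison; an omission also leaves fewer residual degrees of freedom, so a call can be lost at the same fold change. Under limma-voom on the recovered reads, PDF1.2c was also called higher in hda19 (1.39), as it was on reads divided by 2 (1.36). The summed PDF1.2 copies gave no value for the count of genes. Replicate numbers did not pair the libraries (correlations of deviations of -0.075, -0.078 and 0.128), and with replicate number as a block the counts stayed at 2, 4 and 3. Depth limits PDF1.1 and PDF1.2b, with 0 to 23 reads per library, the wild-type values of ERF1 (11 and 2 reads) and the hdip1/2/3 values of PDF1.2c (6 and 2 reads) and PDF1.3 (18 and 6 reads).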
